A study of Homo sapiens with 12 samples.

Results

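The class 3 semaphorin genes SEMA3A, SEMA3B, SEMA3C, SEMA3D, SEMA3E and SEMA3F and the receptor genes NRP1, NRP2, PLXND1 and PLXNA1 were followed by symbol in RNA-seq of DU145 prostate carcinoma spheroids, 10 genes of 26485 in the tables. SEMA3E was chosen because its increase from DU145KO to DU145KO+vector was the largest of the 14732 genes tested, so its values between those lines are given as a description and without a test. All 10 genes passed the filter on low counts.

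The samples came from 3 lines with 4 biological replicates each. In all of them the α2 integrin gene ITGA2 of DU145, a human prostate cancer cell line, had been knocked out with CRISPR-Cas9. DU145KO cells carried no further construct, DU145KO+α2 cells were stably transfected with the pAWneo2 vector holding α2 integrin cDNA, and DU145KO+vector cells were stably transfected with empty pAWneo2. The transfected lines were maintained in geneticin and DU145KO was not, so that the transfection, the drug and the vector cannot be told apart between them. Each construct was studied in 1 transfected line, and RNA was taken after 72 hours in serum-free medium from spheroids seeded with 8000 cells each. ITGA2 stood at 305 ± 33.5 CPM in DU145KO+α2, at 17.6 ± 3.15 in DU145KO+vector and at 20.7 ± 4.16 in DU145KO (mean ± SD, n = 4; CPM is a count scaled to a fixed library total after TMM normalization). The total count was 13948734 to 19988111 per sample, at which 3 counts correspond to 0.150 to 0.215 CPM. All 5 epithelial markers were present, while KLK2, KLK3 and FOLH1 were at 0 in every sample.

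Class 3 semaphorins are secreted guidance proteins, first known for repelling growing axons and later for acting on blood vessels and tumour cells. Most of them bind a neuropilin, NRP1 or NRP2, which holds the ligand while a plexin spans the membrane and carries the signal inward to small GTPases and the actin cytoskeleton. SEMA3E differs in that it can bind plexin D1, the product of PLXND1, without a neuropilin, and neuropilins also serve as co-receptors of vascular endothelial growth factors.

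SEMA3E lies on chromosome 7 of GRCh38, at chr7:83363238-83649139 on the minus strand. Upstream of it toward higher coordinates follow SEMA3A, at chr7:83955777-84492724, and SEMA3D, at chr7:84995553-85187056, and on the other side lies SEMA3C, at chr7:80742538-80922359, all on the same strand. SEMA3B and SEMA3F are neighbours on chromosome 3, at chr3:50267558-50277546 and chr3:50155045-50189075. PLXND1 (chr3:129555214-129606676) and PLXNA1 (chr3:126982693-127037389) are on the same chromosome, NRP1 is at chr10:33177492-33336262 and NRP2 at chr2:205681990-205798133. Promoter sequences from RefSeq (GRCh38.p14) were matched for 8 of the 10 genes, and the 250 bases before the start are shown for SEMA3E, for its abundant neighbour SEMA3C and for the SEMA3E receptor PLXND1, which differ in level and in base composition. Capitals mark every match, on either strand, of the E-box CACGTG, the TATA box TATAAA, the GC box GGGCGG, the CCAAT box and the AP-1 motif TGACTCA, and matches of the GC box may overlap.
SEMA3E, chr7:83649140-83649389, minus strand: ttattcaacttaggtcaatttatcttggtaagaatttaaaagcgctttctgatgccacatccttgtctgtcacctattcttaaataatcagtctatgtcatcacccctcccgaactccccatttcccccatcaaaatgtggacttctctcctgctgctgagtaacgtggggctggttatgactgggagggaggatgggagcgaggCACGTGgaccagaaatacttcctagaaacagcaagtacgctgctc
SEMA3C, chr7:80922390-80922639, minus strand: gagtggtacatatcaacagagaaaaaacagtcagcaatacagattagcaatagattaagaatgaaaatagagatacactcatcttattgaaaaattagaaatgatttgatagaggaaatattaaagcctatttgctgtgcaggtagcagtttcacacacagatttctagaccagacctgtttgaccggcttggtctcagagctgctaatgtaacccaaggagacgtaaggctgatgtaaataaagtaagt
PLXND1, chr3:129606677-129606926, minus strand: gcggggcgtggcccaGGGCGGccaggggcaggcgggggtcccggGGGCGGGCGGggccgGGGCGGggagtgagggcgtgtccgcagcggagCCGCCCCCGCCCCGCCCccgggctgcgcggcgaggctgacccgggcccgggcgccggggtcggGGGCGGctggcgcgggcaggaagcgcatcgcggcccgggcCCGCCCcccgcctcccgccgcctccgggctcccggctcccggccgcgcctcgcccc
The SEMA3E window held 1 E-box and none of the other motifs, with 6 CpG dinucleotides and a GC content of 46.4%. The SEMA3C window held none of the motifs, 2 CpG dinucleotides and 36.4% GC. The PLXND1 window held 9 GC boxes, 41 CpG dinucleotides and 88.8% GC. Of 35116 RefSeq promoter windows of this length, 6.34% held the E-box, 42.6% the GC box, 10.7% the TATA box, 32.0% the CCAAT box and 4.20% the AP-1 motif, with a median of 11 CpG dinucleotides. Matches to such short motifs describe the letters of the window and are no evidence of a bound factor.

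The level of each gene per length, in RPKM, was highest for NRP1 and SEMA3C. NRP1, the neuropilin that most class 3 ligands can bind, was the most abundant gene of the group in all 3 lines, at 68.2 ± 4.5 RPKM in DU145KO, 67.2 ± 4.3 in DU145KO+vector and 92.7 ± 9.1 in DU145KO+α2 (n = 4). SEMA3C, a ligand known to promote migration of several tumour cell types, came next at 26.6 ± 1.7, 23.2 ± 2.3 and 33.9 ± 2.4 RPKM in the same order. The sample ranges of NRP1 and SEMA3C did not overlap each other or those of any other member in any line.

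**Figure D1:**
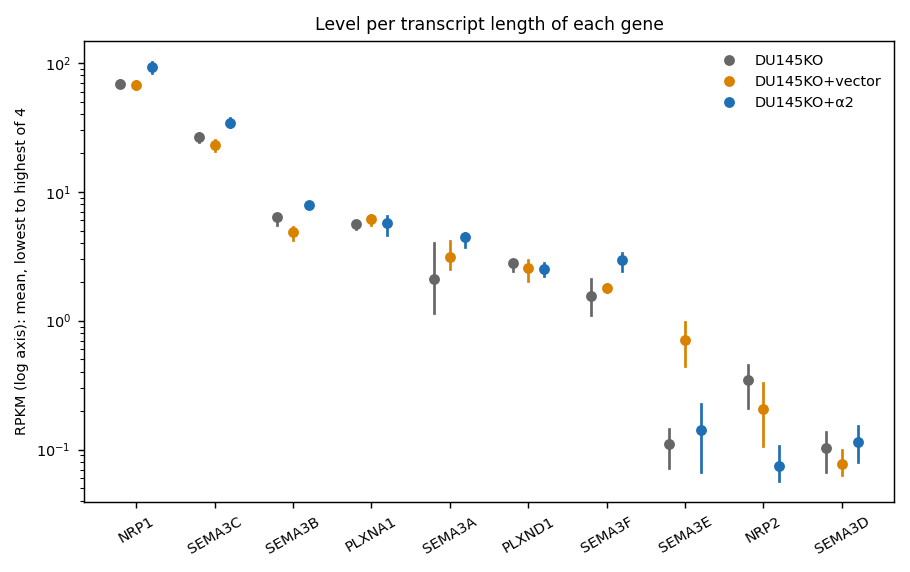
Level of the 10 genes in RPKM on a log axis, with the mean as a point and the lowest to highest of 4 samples as a line, by cell line. NRP1 and SEMA3C lead in each line. SEMA3E is at about the level of SEMA3D in DU145KO and DU145KO+α2 and above SEMA3D, with ranges apart, in DU145KO+vector.

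Below these came SEMA3B, PLXNA1, SEMA3A, PLXND1 and SEMA3F, with line means between 1.57 and 7.84 RPKM. The ranges of SEMA3B and PLXNA1 overlapped in DU145KO and were apart in the other lines, with SEMA3B above PLXNA1 in DU145KO+α2 and below it in DU145KO+vector. SEMA3A overlapped PLXND1 in DU145KO and DU145KO+vector, and overlapped PLXNA1 in DU145KO+α2. The least abundant genes were SEMA3E, SEMA3D and NRP2, whose order differed by line. NRP2 was above SEMA3E in DU145KO, with ranges apart, and below it in DU145KO+vector, again with ranges apart, while in DU145KO+α2 the 3 genes lay close together and each overlapped the next.

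SEMA3E was read from 11, 8, 16 and 14 counts in replicates 1 to 4 of DU145KO, from 14, 9, 16 and 24 counts in DU145KO+α2 and from 54, 63, 86 and 96 counts in DU145KO+vector. In CPM, the DU145KO replicates stood at 0.728, 0.489, 0.983 and 0.820, those of DU145KO+α2 at 0.869, 0.450, 0.945 and 1.53, and those of DU145KO+vector at 2.99, 4.52, 4.95 and 6.61. All 4 DU145KO+vector samples were thus above every sample of the other lines, whose ranges overlapped. The log2 fold change from DU145KO to DU145KO+vector was 2.64 (SE 0.33), a fold of 6.23. This value chose the gene: 4 genes were more than 2-fold higher at an adjusted p under 0.05 between these lines, and after SEMA3E came AP3B2 at 1.85 on the log2 scale. The log2 fold change of DU145KO+α2 against DU145KO+vector was -2.34 (SE 0.31), which rests on the same high samples and is also given without a test. In RNA of whole spheroids, a larger share of cells with SEMA3E and more SEMA3E RNA per cell cannot be told apart.

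Against DU145KO, which was not transfected, DU145KO+α2 differed in SEMA3E by a log2 fold change of 0.30 (SE 0.38). The DU145KO samples also entered the choice of SEMA3E, so this value is likewise given without a test. The 95% interval of the difference, which does not allow for that choice, ran from -0.52 to 1.11. At these counts the interval thus took in a rise of up to about 2-fold, and a fall only to -0.52 on the log2 scale. In each of the lines, replicates 3 and 4 were above the line's mean log2 CPM of SEMA3E and replicates 1 and 2 below it.

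**Figure D2:**
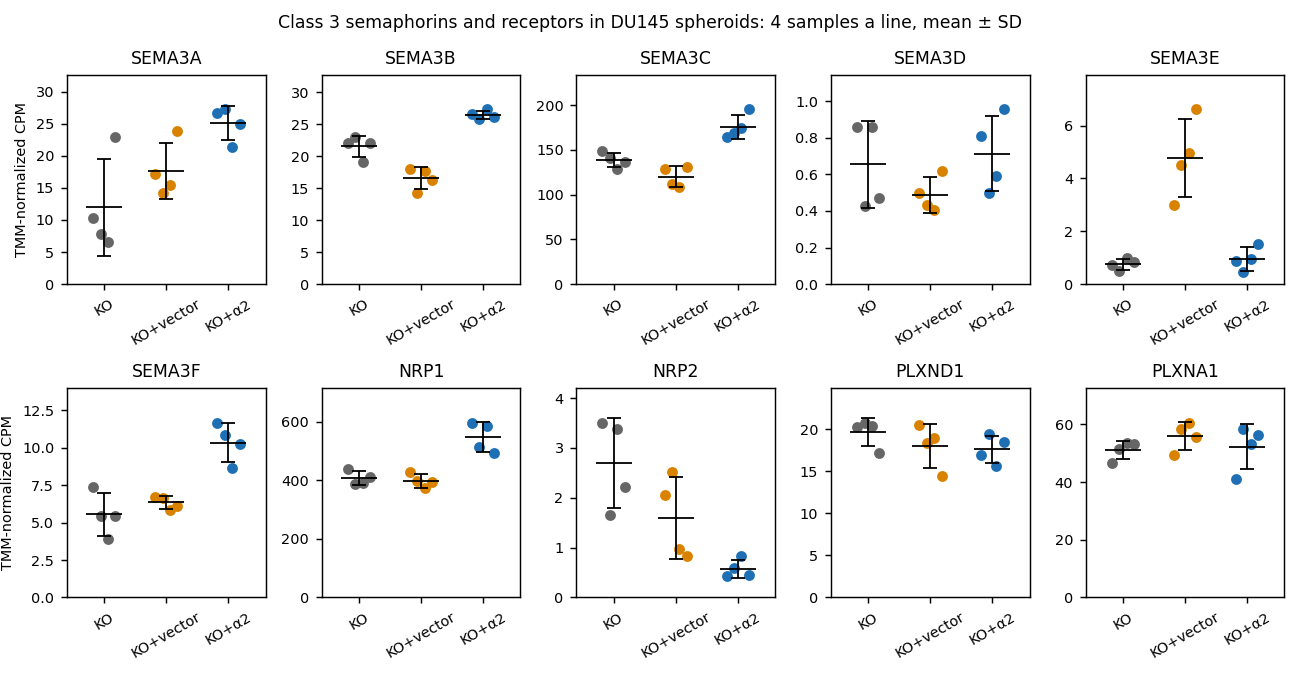
TMM-normalized CPM of each of the 10 genes in the 12 samples, on a linear axis from 0, with points for replicates and bars for the mean ± SD of 4. SEMA3E is high in DU145KO+vector, SEMA3B, SEMA3C, SEMA3F and NRP1 are highest in DU145KO+α2, NRP2 is lowest there, and the ranges of PLXND1 and PLXNA1 overlap in all lines.

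SEMA3E made up little of the ligand RNA even where it was high. Of the summed RPKM of the 6 ligands, SEMA3E held 1.24% to 2.64% in the DU145KO+vector samples, 0.196% to 0.440% in DU145KO and 0.138% to 0.427% in DU145KO+α2. SEMA3C held between 66.2% and 75.2% of the sum in every sample, and SEMA3B between 13.0% and 18.4%. SEMA3G, a further class 3 ligand outside this sum, had line means between 0.753 RPKM in DU145KO+vector and 1.63 RPKM in DU145KO.

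**Figure D3:**
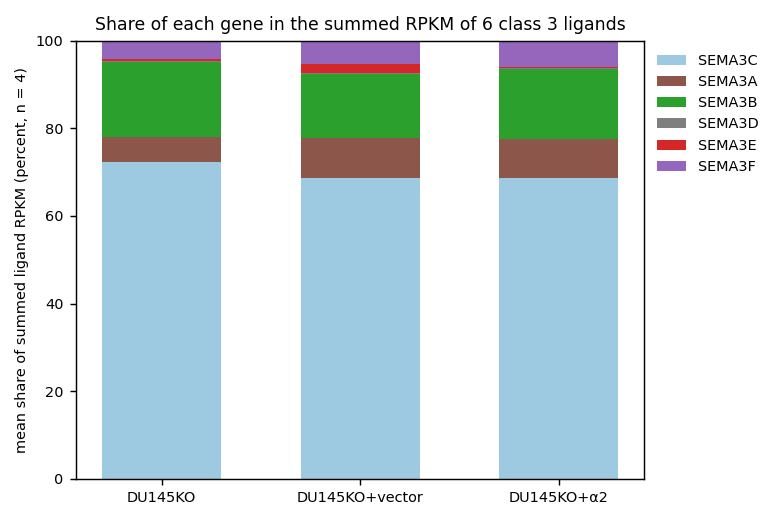
Mean share of each ligand in the summed RPKM of the 6 class 3 ligands, in percent, for the 3 lines with 4 samples each, as stacked bars. SEMA3C fills 68.6% to 72.4% of each bar and SEMA3E is a thin band that is widest in DU145KO+vector.

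The pair of transfected lines was the study's comparison of α2 integrin present against absent. Between them 3 of the 5 other ligands, SEMA3B, SEMA3C and SEMA3F, rose in DU145KO+α2 by between 1.46-fold and 1.63-fold, as did the receptor NRP1 by 1.38-fold, and NRP2 fell. SEMA3E was left out of the counts for this pair, since its level in DU145KO+vector chose it. Of the 9 other genes, 4 rose and 1 fell at an adjusted p under 0.05 in edgeR's quasi-likelihood test, beside 11.9% of all 14732 genes tested. NRP2, the one that fell, was also more than 2-fold lower, and 2.21% of all genes were called with a change over 2-fold. The samples of the lines did not overlap for 4 of the 9 genes, against 17.2% of all genes.

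Set against DU145KO, DU145KO+α2 showed higher SEMA3C, SEMA3F and NRP1 and lower NRP2. SEMA3E was left out here too, since the DU145KO samples entered its choice. With this reference 3 of the 9 other genes rose and 1 fell, beside 8.17% of all genes tested. The one that fell, NRP2, was more than 2-fold lower, while 2.1% of all genes were called with a change over 2-fold in either direction. Without overlap of samples, 4 of the 9 were higher and 1 was lower, against 12.9% of all genes in either direction. With the replicate number as a block, 5 rose and 1 fell beside 22.3% of all genes. The added ones were SEMA3A and SEMA3B. Against DU145KO+vector 4 of the 9 rose and 1 fell with the block, beside 26.5% of all genes. The DU145KO+α2 samples are shared by both comparisons, so their values are given side by side and are not independent of each other.

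**Figure D4:**
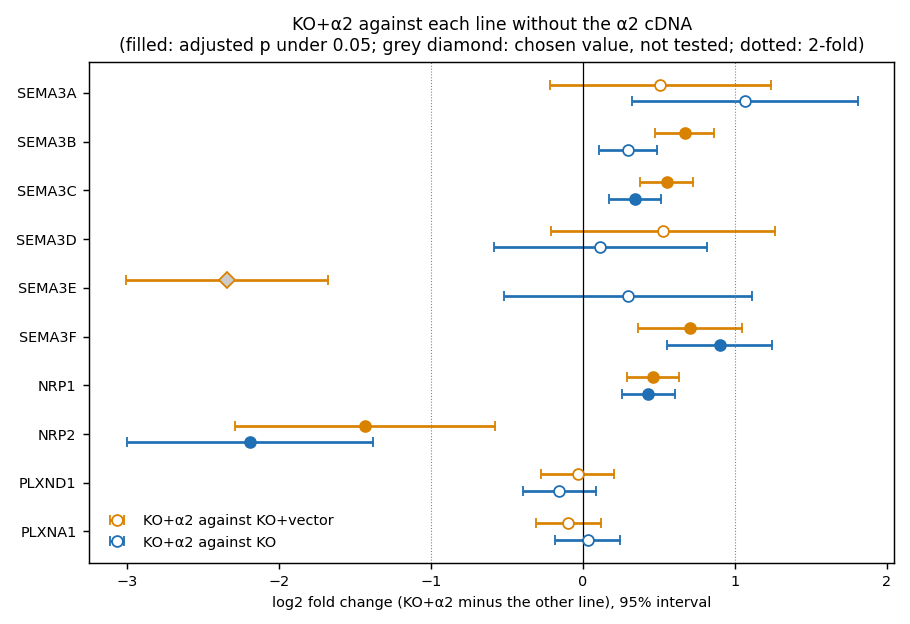
Log2 fold change of the 10 genes in DU145KO+α2 against DU145KO+vector and against DU145KO, with 95% intervals, from edgeR with 4 samples a line. Filled points had an adjusted p under 0.05. Both values of SEMA3E are descriptive, and the grey diamond is its chosen value. NRP2 lies furthest to the left among the tested values at -1.44 and -2.19.

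Among the ligands, SEMA3B, which has been described as a tumour suppressor on the short arm of chromosome 3, gave 26.5, 25.8, 27.3 and 26.0 CPM in the DU145KO+α2 replicates. The DU145KO+vector replicates gave 18.0, 14.2, 17.7 and 16.3 CPM and those of DU145KO 22.0, 23.0, 19.1 and 22.0 CPM. Every DU145KO+α2 sample was above every sample of the other lines, and DU145KO lay between. The rise against DU145KO+vector was 0.67 on the log2 scale (SE 0.09, edgeR adjusted p = 0.000220). Against DU145KO the log2 fold change was 0.30 (SE 0.09, edgeR adjusted p = 0.0569, and 0.0120 with the replicate block). Its adjusted p from the DESeq2 Wald test was 0.0263 and from voom with limma 0.0451. Leaving out DU145KO+vector replicate 2 brought the unblocked value to an adjusted p of 0.0439 in edgeR.

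SEMA3C gave 164, 169, 175 and 195 CPM in the DU145KO+α2 replicates. It gave 129, 112, 108 and 131 CPM with the empty vector and 148, 141, 129 and 137 CPM in untransfected cells. The DU145KO+α2 samples did not overlap either of the other lines. SEMA3C rose by 0.55 on the log2 scale against DU145KO+vector (SE 0.08, edgeR adjusted p = 0.000399) and by 0.34 against DU145KO (SE 0.08, edgeR adjusted p = 0.0144). The second call was lost without DU145KO+α2 replicate 4, at a log2 fold change of 0.29 and an edgeR adjusted p of 0.0573.

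SEMA3F, the neighbour of SEMA3B and a ligand that prefers NRP2, gave 11.7, 10.8, 8.62 and 10.2 CPM in the DU145KO+α2 replicates. It gave 6.71, 6.68, 5.87 and 6.13 CPM with the empty vector and 7.41, 5.44, 3.93 and 5.44 CPM in untransfected cells. The lowest DU145KO+α2 sample was above the highest of each other line. SEMA3F rose by 0.71 on the log2 scale against DU145KO+vector (SE 0.16, edgeR adjusted p = 0.00886) and by 0.90 against DU145KO (SE 0.16, edgeR adjusted p = 0.00239). Both calls held whichever of the 12 samples was left out.

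SEMA3A, the first member of the class to be described, varied most within DU145KO, where replicates 1 to 4 gave 10.4, 7.76, 6.64 and 23.0 CPM. The DU145KO+α2 replicates gave 26.6, 27.2, 21.4 and 25.0 CPM, and those with the empty vector gave 17.2, 14.1, 15.4 and 23.8 CPM. DU145KO replicate 4 lay within the range of DU145KO+α2, while the other 3 DU145KO samples lay below all samples of the transfected lines. The log2 fold change of DU145KO+α2 against DU145KO was 1.06 (SE 0.34, edgeR adjusted p = 0.0856, and 0.0267 with the replicate block). Without DU145KO replicate 4 it was 1.60 with an edgeR adjusted p of 0.000124. Against DU145KO+vector it was 0.51 (SE 0.33, edgeR adjusted p = 0.394).

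SEMA3D was at 6 to 15 counts in every sample, and its line means were 0.654 CPM in DU145KO, 0.488 in DU145KO+vector and 0.713 in DU145KO+α2. The log2 fold changes of DU145KO+α2 were 0.53 against DU145KO+vector and 0.11 against DU145KO, with 95% intervals of -0.21 to 1.26 and -0.59 to 0.81 and edgeR adjusted p-values of 0.388 and 0.895. At this depth no change within those intervals was resolved for SEMA3D.

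Among the receptors, NRP1 gave 597, 515, 586 and 495 CPM in the DU145KO+α2 replicates. It gave 429, 398, 373 and 394 CPM with the empty vector and 438, 387, 390 and 413 CPM in untransfected cells. The DU145KO+α2 samples were above all others, and the other lines overlapped. NRP1 rose by 0.46 on the log2 scale against DU145KO+vector (SE 0.08, edgeR adjusted p = 0.00152) and by 0.43 against DU145KO (SE 0.08, edgeR adjusted p = 0.00330). NRP1 is also a gene of endothelial cells, and the summed RPKM of 5 endothelial markers was 2.15 to 3.11 in DU145KO+α2, 0.115 to 0.275 in DU145KO+vector and 0.412 to 0.534 in DU145KO. In DU145KO+α2 most of that sum was CDH5 (1.88 to 2.93 RPKM). The paper lists CDH5 among the genes up regulated in these DU145 cells with α2 integrin, also by real-time PCR. VWF and TEK were at 0 to 4 counts in every sample, and the markers' part in the NRP1 result was not tested.

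NRP2, the neuropilin that SEMA3F and SEMA3C can use, was read from 53, 27, 55 and 38 counts in DU145KO, 37, 35, 17 and 12 in DU145KO+vector and 7, 12, 14 and 7 in DU145KO+α2. These correspond to 3.51, 1.65, 3.38 and 2.22 CPM, to 2.05, 2.51, 0.978 and 0.827 CPM, and to 0.435, 0.600, 0.827 and 0.446 CPM. All DU145KO samples were above all DU145KO+α2 samples, while DU145KO+vector replicates 3 and 4 came close to or met the highest DU145KO+α2 sample. NRP2 fell by 2.19 on the log2 scale against DU145KO (SE 0.38, edgeR adjusted p = 0.00181), a call that held whichever of the 12 samples was left out. Against DU145KO+vector it fell by 1.44 (SE 0.40, edgeR adjusted p = 0.0283). That call was lost in 5 of these 12 cases, without DU145KO+α2 replicate 1, 2 or 4 or DU145KO+vector replicate 1 or 2, at edgeR adjusted p-values of 0.0615 to 0.101. It was also lost with voom and limma, at an adjusted p of 0.0654.

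The plexin genes PLXND1 and PLXNA1 did not pass the test in either comparison. PLXND1 ranged from 15.7 to 19.4 CPM in DU145KO+α2, from 14.4 to 20.4 in DU145KO+vector and from 17.2 to 20.8 in DU145KO. Its log2 fold change in DU145KO+α2 was -0.04 against DU145KO+vector (95% interval -0.28 to 0.21, edgeR adjusted p = 0.892) and -0.16 against DU145KO (-0.40 to 0.08, edgeR adjusted p = 0.481). PLXNA1, a plexin that pairs with neuropilins, gave -0.10 (-0.31 to 0.12, edgeR adjusted p = 0.617) and 0.03 (-0.18 to 0.24, edgeR adjusted p = 0.914).

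Between DU145KO+vector and DU145KO, the contrast that chose SEMA3E, the other values are likewise descriptive. SEMA3A stood 0.56 higher on the log2 scale, and 1.10 higher without DU145KO replicate 4. SEMA3F stood 0.19 and PLXNA1 0.13 higher. NRP2 stood at -0.76, SEMA3D at -0.41, SEMA3B at -0.37, SEMA3C at -0.21, PLXND1 at -0.12 and NRP1 at -0.03. Of the 9 genes other than SEMA3E, SEMA3B had samples that did not overlap, against 8.76% of all genes. SEMA3B was also the 1 gene of the 9 called by edgeR, beside 2.34% of all genes, without a 2-fold change, beside 0.835%. That call was lost in 10 of the 12 fits leaving out 1 sample, with voom and limma, without a filter and with the 2 lines alone. With the replicate block SEMA3B and SEMA3C were called, beside 13.4% of all genes. Nothing is read from these counts.

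The genes next to SEMA3E on chromosome 7 were read in the same tables. Between SEMA3C and SEMA3D the tables hold HGF, the ligand of the MET receptor, CACNA2D1, a calcium channel subunit, and PCLO, a scaffold protein of synapses. HGF had 1 count in all samples together. CACNA2D1 had 15 to 24 counts in the DU145KO samples, 7 to 21 in DU145KO+vector and 0 or 1 in DU145KO+α2. CACNA2D1 was called lower in DU145KO+α2 against DU145KO+vector and DU145KO (edgeR adjusted p = 0.000328 and 7.07e-05). At such counts its fitted fold is not given as a size. SEMA3E in DU145KO+α2 gave 0.30 on the log2 scale against DU145KO, without a test. No likeness of CACNA2D1 to SEMA3E is read against DU145KO+vector, since the level there chose SEMA3E. From DU145KO to DU145KO+vector CACNA2D1 gave a log2 fold change of -0.73 with overlapping samples. PCLO did not pass the unblocked test, with log2 fold changes of -0.09 and -0.22 in DU145KO+α2 against DU145KO+vector and DU145KO (edgeR adjusted p = 0.737 and 0.370). With the replicate block it was called lower against DU145KO (edgeR adjusted p = 0.0206). The 18 tested genes within 5 Mb of SEMA3E had a median log2 fold change of 0.05 in DU145KO+vector against DU145KO, with 10 of the 18 above 0. The median over all genes tested was -0.001. Within 2 Mb only 4 genes were tested, with a median of -0.27 and 1 of them above 0. These were CACNA2D1, PCLO, SEMA3A and SEMA3D, whose values are given above, so this median is no separate reading.

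The genes whose log2 CPM followed SEMA3E most closely over the 12 samples, compared with the 12851 genes whose mean log2 CPM reached 1, were ZNF781 (Pearson r = 0.944), PITPNA-AS1 (0.940), SGMS1 (0.920), TRIP6 (0.897) and AP3B2 (0.892). Except for PITPNA-AS1, whose ranges overlapped, each of them was higher in all DU145KO+vector samples than in any DU145KO sample, from 5.75 to 8.95 CPM against 1.48 to 2.32 CPM for AP3B2 down to 43.6 to 46.1 against 37.8 to 40.1 CPM for SGMS1. PITPNA-AS1 is an antisense gene, whose reads may not be separated from those of its partner since the strand setting of the counting is not known. The lowest values were those of MYO5B (-0.967), PARM1 (-0.944) and NHS (-0.941). The 12 points are libraries of 3 lines, so the values describe these libraries and carry no test. Among the other members, PLXNA1 had the highest value at 0.391 and SEMA3B the lowest at -0.792.

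Other genes of the pathway were taken from lists of other semaphorins, other plexins, co-receptors and neuropilin ligands, plexin effectors and proteases that process semaphorins, 77 genes of which 66 were tested. In DU145KO+α2 against DU145KO+vector 9 of them rose and 6 fell, beside 11.9% of all genes called, with a median log2 fold change of 0.01 beside -0.01 over all genes. Against DU145KO 1 rose and 8 fell, beside 8.17% of all genes, with a median of 0.02. With the replicate block 12 rose and 7 fell against DU145KO+vector and 8 rose and 11 fell against DU145KO, beside 26.5% and 22.3% of all genes.

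**Figure D5:**
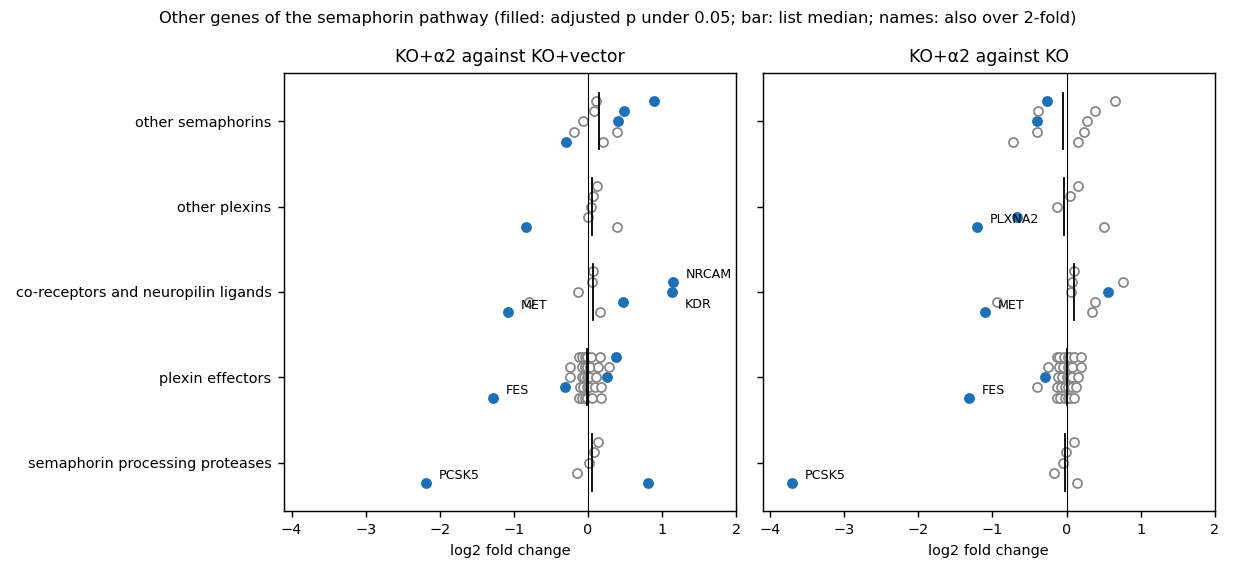
Log2 fold change of the tested genes of the 5 pathway lists in DU145KO+α2 against DU145KO+vector (left) and DU145KO (right), with a bar at each list's median. Most of the plexin effectors lie near 0, and MET, FES and PCSK5 are more than 2-fold lower in both panels.

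Among other semaphorins, 3 of 10 tested genes rose and 1 fell against DU145KO+vector, beside 11.9% of all genes called. SEMA4B, a membrane-bound semaphorin and the most abundant of this list, rose from 372 ± 83.4 to 688 ± 110 CPM (SD, n = 4), a log2 fold change of 0.89 (SE 0.19, edgeR adjusted p = 0.00971). SEMA4D, the ligand of plexin B1, rose by 0.40 and SEMA6C by 0.48, and SEMA4F fell by 0.30. Against DU145KO, SEMA4F fell by 0.27 and SEMA4G by 0.39, and SEMA4B gave 0.66 (edgeR adjusted p = 0.0548, and 0.000217 with the replicate block). SEMA4G was also lower in DU145KO+vector than in DU145KO, at -0.47. The block brought the count of this list against DU145KO from 0 that rose and 2 that fell to 3 and 4, beside 22.3% of all genes. The genes it added there had edgeR adjusted p-values, without and with the block, of 0.0605 and 0.0101 for SEMA4D, 0.0506 and 0.00280 for SEMA6C, 0.0978 and 0.000771 for SEMA6B, and 0.213 and 0.00348 for SEMA3G. Against DU145KO+vector it added SEMA4C (0.141 and 0.0237).

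Of the other plexins, PLXNA2, a plexin that pairs with neuropilins, was at a mean of 1.62 CPM in DU145KO+α2 beside 2.93 CPM with the empty vector and 3.79 CPM in untransfected cells, and fell by 0.83 and 1.21 on the log2 scale (edgeR adjusted p = 0.0421 and 0.00563). PLXNC1, the receptor of SEMA7A, fell by 0.67 against DU145KO, and DU145KO+vector was also lower than DU145KO, at -0.75. PLXNB2, the most abundant plexin per length at line means of 33.5 to 36.3 RPKM, did not pass the test in either comparison. PLXNB3 was called only with the block, at edgeR adjusted p-values of 0.0460 against DU145KO+vector and 0.0141 against DU145KO.

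Among co-receptors and neuropilin ligands, MET, the hepatocyte growth factor receptor and a partner of plexins, fell to 42.2 ± 4.5 CPM in DU145KO+α2 from 89.1 ± 20.3 CPM with the empty vector and 90.2 ± 18.5 CPM in untransfected cells (SD, n = 4). Its log2 fold changes were -1.08 and -1.10 (SE 0.18 each, edgeR adjusted p = 0.00167 and 0.00199). Against DU145KO+vector, VEGFA, which binds NRP1, rose by 0.47 (SE 0.14, edgeR adjusted p = 0.0372), and the VEGF receptor gene KDR and the adhesion gene NRCAM rose more than 2-fold (KDR by 1.14 on the log2 scale). KDR was low throughout, with line means of 2.26 CPM in DU145KO+α2, 1.03 in DU145KO+vector and 2.17 in DU145KO. VEGFC rose by 0.56 against DU145KO, and DU145KO+vector also stood 0.70 higher than DU145KO. Against DU145KO the edgeR adjusted p of VEGFA was 0.157, and 0.000491 with the block, and that of NRCAM was 0.161, and 0.0429 with the block.

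Of 35 tested plexin effectors, 2 rose and 2 fell against DU145KO+vector, and 2 fell against DU145KO, shares close to or below the 11.9% and 8.17% called among all genes. FES, a kinase described downstream of plexin A1, was low and fell by 1.28 and 1.31 (edgeR adjusted p = 0.0314 and 0.0349). LIMK1, which phosphorylates cofilin, fell by 0.31 and 0.29. DPYSL2, which encodes a collapsin response mediator, rose by 0.37 against DU145KO+vector, as did the Ras GTPase-activating gene RASA1 by 0.25. Against DU145KO, DPYSL2 gave 0.07 and RASA1 -0.03 (edgeR adjusted p = 0.708 and 0.839). DU145KO+vector stood at -0.30 and -0.29 against DU145KO for these genes. With the block MICAL3 was also called lower against both lines, and ARHGEF11 higher against DU145KO+vector. The abundant GTPase genes RAC1 and RHOA did not pass the test in either comparison.

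Of the proteases, PCSK5 was at a mean of 0.0875 CPM in DU145KO+α2, 0.424 in DU145KO+vector and 1.24 in DU145KO, and passed the test against both (edgeR adjusted p = 0.0443 and 0.000554). With 0 counts in some DU145KO+α2 samples its fitted fold is not given as a size. PCSK6, a related proprotein convertase, rose by 0.81 against DU145KO+vector (edgeR adjusted p = 0.0337). PCSK6 gave 0.10 against DU145KO (edgeR adjusted p = 0.860), and DU145KO+vector stood at -0.71 against DU145KO. FURIN, the convertase known to cleave class 3 semaphorins, had line means of 96.6 to 103 CPM and did not pass the test in either comparison. ADAM10 was called higher against DU145KO only with the block (edgeR adjusted p = 0.300, and 0.0471 with it).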

How the data were processed

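RNA from spheroids of 3 lines with 4 biological replicates each was sequenced. The authors made stranded mRNA libraries, sequenced single-end reads, aligned them to hg38 with TopHat 2.1.0 and counted uniquely aligned reads per known gene with Subread 1.5.0. The strand setting of the counting is not given in the sources used here. The authors deposited raw counts, and RPKM values made after TMM normalization. Lines and replicate numbers came from the labels.

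Counts were tested in R 4.3.3 with edgeR 4.0.16. The filter filterByExpr (minimum count 10) left 14732 of 26485 genes, all 12 samples entered one quasi-likelihood model with TMM, and two-sided p-values were adjusted by Benjamini-Hochberg over all genes tested. Genes with an adjusted p under 0.05 were called. The script was tested on simulated data. Alternatives were DESeq2 1.42.0, voom with limma 3.58.1, other scalings and filters, the 2 compared lines alone, the replicate block and each sample left out. Samples with the same number, which the labels give, deviated together in all 12 pairs (correlations of 0.135 to 0.554, mean 0.378). The 36 pairs with different numbers gave -0.290 to 0.149, with a mean of -0.126, so the ranges overlapped slightly. For members, list genes and genes between SEMA3C and SEMA3D, the blocked result is therefore given where it changed a call in DU145KO+α2. No pair of replicates was as alike as sampling noise alone would leave it.

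The members and lists were chosen with earlier results of these data known. Named were the members, list genes that were DE (called and over 2-fold), abundant list genes, the genes between SEMA3C and SEMA3D, and those most and least like SEMA3E. Other called list genes were named after their values were seen. Exons of opposite-strand genes covered 0.121% of the exon bases of SEMA3B, 2.28% of SEMA3F, 4.87% of NRP1 and 1.06% of NRP2. Floors cover counting error only, since reads carry no molecular identifiers.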

Additional observations from a re-analysis of the deposited data

Results flagged for a closer look

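PLXND1 in DU145KO replicate 4 stood apart from the rest of its line, at 17.2 CPM against 20.3 to 20.8 CPM in the other 3 samples. The gap to the nearest sample was 0.872 of the line's whole range, above Dixon's 95% critical value for 4 samples. In all, 30 sets of 4 samples were examined, of which 1 stood out so and chance gives about 1.5.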

How the results depend on the processing

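Counts of members here include SEMA3E. Its calls in comparisons with DU145KO+vector follow from how it was chosen and say nothing of how steady the counts are. Among all genes tested, the main fit called 11.9% in DU145KO+α2 against DU145KO+vector and 8.17% against DU145KO. For DU145KO+vector against DU145KO it called 2.34%. The members' counts in DU145KO+α2 against either line stayed within 1.5 times under every alternative run. With 1 sample left out they were 5 to 6 of 10 against DU145KO+vector, 3 to 5 against DU145KO, and 1 to 2 for DU145KO+vector against DU145KO. That last count fell from 2 to 1 with voom and limma, without a filter on low counts, with at least 10 counts in every sample, and in a fit of the 2 lines alone. The gene lost was SEMA3B, except with at least 10 counts in every sample, where SEMA3E was not tested. Among the pathway lists, the count against DU145KO+vector (15) was 8 to 17 with 1 sample left out, and was 9 without DU145KO+α2 replicate 3 or 4 or DU145KO+vector replicate 3 and 8 without DU145KO+vector replicate 2. The count against DU145KO (9) was 5 to 11, with 5 without DU145KO+α2 replicate 3 or 4, and 19 with the replicate block, beside 22.3% of all genes. For DU145KO+vector against DU145KO (4) it was 2 to 6, with 2 without DU145KO replicate 1 or DU145KO+vector replicate 2 or 3. It was 8 with the DESeq2 Wald test, beside 587 of all 14732 genes. With the replicate block it was 11 of 66, beside 13.4% of all genes. The genes added by the block were SEMA3G, SEMA6B, KDR, DPYSL2, GIPC1, PCSK5 and PCSK6. The block changed no member's call beyond those given beside SEMA3A, SEMA3B and SEMA3C. The cause of these shifts was not tested. SEMA3A against DU145KO had an adjusted p of 0.0368 with DESeq2 and 0.00924 with voom and limma, and against DU145KO+vector 0.0377 in a fit of these lines alone. Of the 5 genes most like SEMA3E by Pearson r, PITPNA-AS1 was among the 5 by Spearman's rank correlation and ZNF781 tied for the last of these places. The median of the genes next to SEMA3E changed sign between windows of 5 and 2 Mb for DU145KO+vector against DU145KO and for DU145KO+α2 against DU145KO. SEMA3E, SEMA3D and NRP2 rest on fewer than 100 counts in each sample, which limits what their intervals can show.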
